A study of Mus musculus with 12 samples.

Results

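Macrophage and leukocyte genes are the transcripts by which white blood cells, and macrophages above all, are recognised in a mixed RNA sample. The set taken here was a list of 38 gene symbols with no filter on level, drawn up with earlier results of these data known, and all 38 were found among the 24132 symbols of the expression table. They were followed across 6 polyadenylated RNA libraries from mouse neonatal tail tip fibroblasts, the connective tissue cells that grow out of the tail of a newborn. There were 2 libraries of Hotair knockout cells, 2 of heterozygous cells and 2 of wild-type cells, all on a strain backcrossed to C57BL6. Hotair is a long noncoding RNA of the HoxC cluster. The labels do not say how the allele was disrupted, nor whether both libraries of a genotype came from different animals or cultures. All p-values here reflect variation from library to library, which may be of technical origin only. Levels are RPKM, read counts scaled to the length of the transcript and to the aligned reads of the library, so that levels of different genes can be set side by side.

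Macrophages depend on the receptor encoded by Csf1r, which binds the growth factor CSF1, and on the transcription factor PU.1, encoded by Sfpi1 (Spi1 in current nomenclature). Many of their surface receptors signal through the small adaptor proteins Tyrobp and Fcer1g, which carry an immunoreceptor tyrosine-based activation motif (ITAM). Osteoclasts, the cells that resorb bone, arise from the same lineage under CSF1 and RANKL and share Csf1r, Sfpi1 and Tyrobp with macrophages while losing surface proteins such as the F4/80 antigen encoded by Emr1. Several members on the list, among them Lgmn and Cd14, can also be made by cells outside the myeloid lineage.

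Knockout libraries held 48.1M and 46.0M reads, heterozygous libraries 33.2M and 31.2M and wild-type libraries 29.6M and 27.9M, as recovered from the steps between low values. Read counts of single genes given below also rest on a read length of 37 bases, inferred from the values, and with reads of 74 bases the counts of some genes would be halved and their intervals wider. They rest as well on the smallest gene length that fitted the values. Where the true length is a multiple of it, the counts are too low and the intervals too wide. The depth of the knockout libraries was 1.64 times that of the wild-type libraries, so a single read shows as a lower RPKM there. Hotair was at 0 in both knockout libraries, at 0.213 and 0.172 RPKM in heterozygous libraries and at 0.247 and 0.183 RPKM in wild-type libraries. The summed level of 11 fibroblast genes was 4457 and 4490 RPKM in knockout, 4868 and 4971 RPKM in heterozygous and 5337 and 5346 RPKM in wild-type libraries. Xist, which is transcribed from an inactive X chromosome, stood at 0.021 and 0.00606 RPKM in knockout, 4.65 and 4.46 RPKM in heterozygous and 0.0414 and 0.0479 RPKM in wild-type libraries. The Y-linked gene Ddx3y stood at 2.88 and 2.86 RPKM in knockout, 0.133 and 0.216 RPKM in heterozygous and 1.68 and 1.80 RPKM in wild-type libraries. Sex chromosome content and genotype therefore cannot be told apart in either comparison with the heterozygous cells. Reads of Y-linked genes were present in both knockout and wild-type cells, but not at equal levels. All Y-linked genes measured were higher in knockout than in wild-type libraries. Eif2s3y, for example, stood at 4.95 and 5.58 RPKM in knockout and 1.85 and 1.99 RPKM in wild-type libraries. The cause of this difference was not tested.

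The macrophage and leukocyte genes were higher in knockout cells as a group, with few exceptions. Both knockout libraries lay above the other 4 for 34 of the 38 members, against 28.1% of all 18888 symbols above 0 and 23.4% of the 8353 symbols with a mean under 1 RPKM. The 4 members without this order were Cd53, Aif1, Lgmn and Cd163. Among the 34, Fcgr1 and Clec7a rested on few reads, at most 3 a genotype at the smallest gene length that fitted. Cd14 and Cd74 were also among them, with differences from wild type that were not called in the tests below. The summed level of all members was 103.7 and 104.8 RPKM in knockout, 39.99 and 40.66 RPKM in heterozygous and 44.17 and 44.05 RPKM in wild-type libraries. Without Lgmn, Cd14 and Laptm5, 3 of the 4 highest members in wild-type cells, the sum was 58.2 and 58.9 RPKM in knockout, 5.15 and 4.79 RPKM in heterozygous and 7.32 and 7.13 RPKM in wild-type libraries. In bulk RNA a change in the number of cells of a type and a change in the RNA per cell cannot be told apart.

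**Figure D1:**
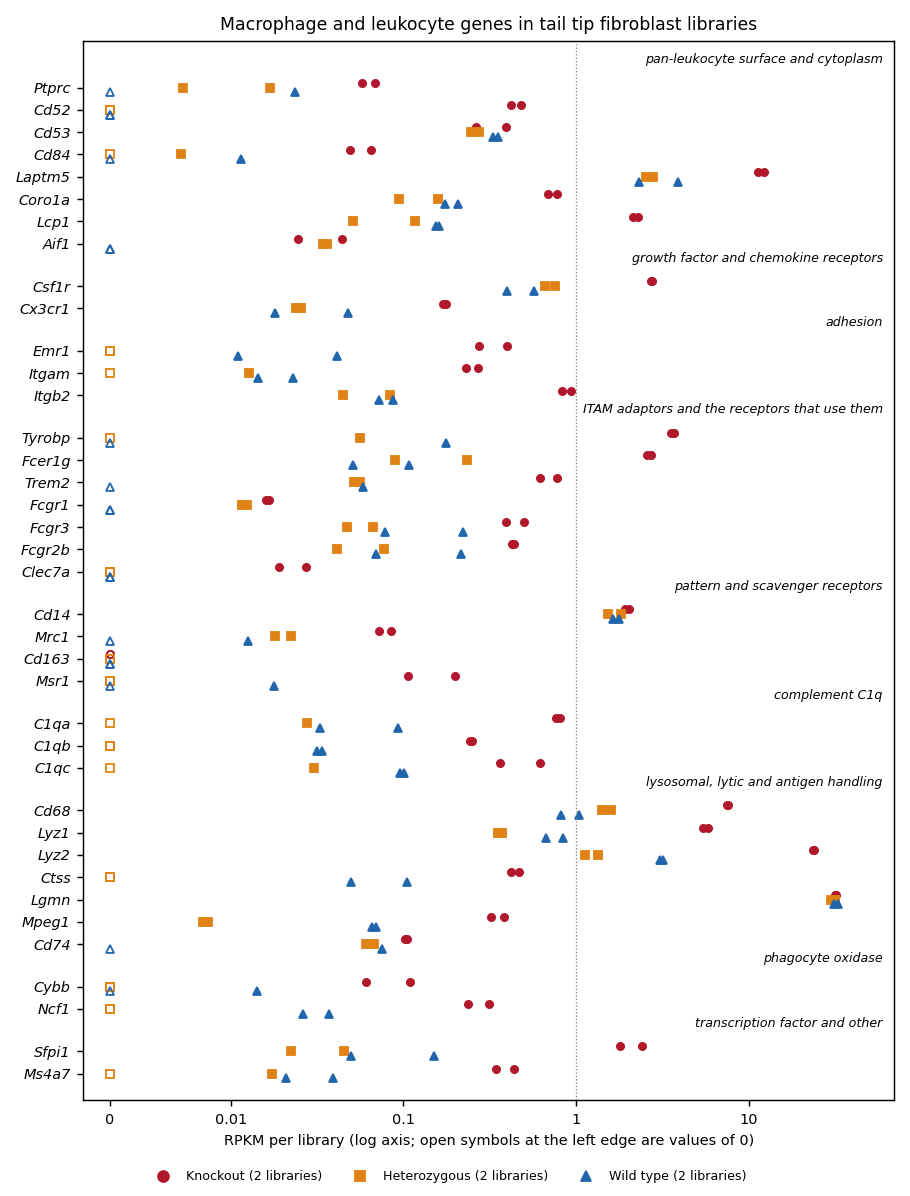
RPKM of each of the 38 members (rows, grouped by role) on a log axis, 1 symbol per library, with 2 libraries of each genotype. Open symbols at the left edge are values of 0, and the dotted line marks 1 RPKM. The knockout libraries stand to the right of the other 4 for 34 members, while Lgmn lies between 30.2 and 32.8 RPKM in all 6 libraries.

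Testing used limma on log2(RPKM + 1) with a level filter that asked for 1 RPKM in 2 or more libraries, and an adjusted p under 0.05 was the threshold of a call. Of the members, 11 entered this test, and 5 of them (Laptm5, Cd14, Cd68, Lyz2 and Lgmn) would have entered without the knockout values. The other 6 (Lcp1, Csf1r, Tyrobp, Fcer1g, Lyz1 and Sfpi1) entered only because they were high in knockout libraries. Against wild type, 9 of the 11 rose in knockout cells and 0 fell, where 40.6% of all 10897 genes tested were called higher and 26.6% lower. Since 6 of the 9 were let in by their knockout values, this count supports nothing by itself. The same holds for the adjusted p-values of those 6 in both knockout comparisons, which are given below as description only. Among the 5 members that entered without the knockout values, Laptm5, Cd68 and Lyz2 rose, each by 1 or more on the log2 scale, and Cd14 and Lgmn were not called. Over all genes tested, 1.83% were called higher by 1 or more. The 2 wild-type libraries are also part of the heterozygous comparison, and the 2 knockout libraries of both knockout comparisons, so the 3 comparisons are not independent of each other.

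Calls over all genes leaned to the higher side in this scaling, with 60.4% of the calls in knockout against wild type being higher, whereas quantile normalization gave 46.7% and median scaling 47.2%. The 9 members were called higher under all 3 scalings, which share the same level filter. For the 6 let in by their knockout values this supports nothing by itself. When no level filter was applied, 31 of the 37 members above 0 were called higher in knockout against wild-type cells and 0 lower, where 28.7% of 18888 symbols were called higher and 15.6% lower. Cd14, Cd53, Cd74, Clec7a, Fcgr1 and Lgmn were not called. Aif1 was among the 31 but rested on 2.9 knockout and 0 wild-type reads, and no difference is read from it. Differences on the log2(RPKM + 1) scale understate the change of genes at such low levels, so ratios of pooled reads are given below for them. Each ratio carries an exact 95% binomial interval, which covers counting error only and not the spread between cultures.

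Sfpi1, whose product PU.1 directs myeloid and B cell development, stood at 1.79 and 2.42 RPKM in knockout libraries, 0.0225 and 0.0454 RPKM in heterozygous and 0.152 and 0.05 RPKM in wild-type libraries. The groups did not overlap between knockout and the other genotypes, while the heterozygous and wild-type libraries all lay under 0.2 RPKM. Sfpi1 rose by 1.49 ± 0.10 (log2, SE) in knockout against wild-type cells (adjusted p = 1.42e-05) and by 1.58 ± 0.10 against heterozygous cells (adjusted p = 3.17e-05). In reads, 264.2 from the knockout libraries stood against 2.9 from heterozygous and 7.9 from wild-type libraries, a ratio of 20.4 (10.1 to 47.2) over wild type.

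Csf1r, the receptor for CSF1 and interleukin 34, was at 2.76 and 2.73 RPKM in knockout, 0.755 and 0.658 RPKM in heterozygous and 0.401 and 0.574 RPKM in wild-type libraries. Every knockout value was above every other one, and the heterozygous values were above the wild-type values. The rise was 1.34 ± 0.07 against wild type (adjusted p = 4.24e-06) and 1.14 ± 0.07 against heterozygous cells (adjusted p = 2.66e-05). Its ligand gene Csf1 was among the higher transcripts in all 6 libraries, at 222 and 224 RPKM in knockout, 238 and 238 RPKM in heterozygous and 191 and 188 RPKM in wild-type libraries. Cx3cr1, the receptor for the chemokine fractalkine, ranged between 0.171 and 0.178 RPKM in knockout libraries and between 0.018 and 0.0478 RPKM in the other 4. The pooled ratio of Cx3cr1 over wild type was 5.37 (2.48 to 14).

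The adaptors had the highest read ratios over wild type of the 34 members that allowed one, with Fcer1g at 33.7 (11.3 to 165) after Tyrobp. Tyrobp, also known as DAP12, was at 3.72 and 3.56 RPKM in knockout libraries, 0 and 0.0562 RPKM in heterozygous and 0.178 and 0 RPKM in wild-type libraries. Only 1 read in the heterozygous and 3 in the wild-type libraries stood behind the low values, against 195.6 in the knockout libraries, and the ratio over wild type was 39.8 (13.5 to 195). Fcer1g, the common gamma chain of Fc receptors, was at 2.59 and 2.71 RPKM in knockout, 0.0895 and 0.234 RPKM in heterozygous and 0.051 and 0.108 RPKM in wild-type libraries. Knockout values of both adaptors lay far from the others with no overlap. Tyrobp rose by 2.10 ± 0.09 (adjusted p = 1.36e-06) and Fcer1g by 1.76 ± 0.08 (adjusted p = 1.68e-06) against wild-type cells.

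The receptors that pair with these adaptors were lower than the adaptors themselves in knockout cells. Trem2, a lipid receptor that signals through Tyrobp, was at 0.619 and 0.778 RPKM in knockout, 0.0516 and 0.0558 RPKM in heterozygous and 0.0587 and 0 RPKM in wild-type libraries, with a ratio over wild type of 23 (6.13 to 193). Fcgr3, an activating receptor for immunoglobulin G that needs Fcer1g, was at 0.392 and 0.503 RPKM in knockout, 0.0665 and 0.0473 RPKM in heterozygous and 0.222 and 0.0785 RPKM in wild-type libraries. Fcgr2b, the inhibitory receptor of the same family, followed with 0.436 and 0.427 RPKM in knockout, 0.0774 and 0.0413 RPKM in heterozygous and 0.216 and 0.0692 RPKM in wild-type libraries. For both Fc receptors the first wild-type library was well above the second, and the knockout libraries stayed above both. Their ratios over wild type were 2.93 (1.54 to 5.94) for Fcgr3 and 2.99 (1.61 to 5.87) for Fcgr2b, genes whose sequences are alike enough that reads could be split between them. Fcgr1, the high-affinity receptor, and Clec7a, the beta-glucan receptor, stayed between 0.016 and 0.0274 RPKM in knockout libraries and at 0.0124 RPKM or less elsewhere. At the smallest gene length that fitted, these levels were at most 3 reads a genotype, and no fold was taken from them.

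Of the pan-leukocyte genes, Laptm5 and Lcp1 were the ones tested. Laptm5, a lysosomal membrane protein of blood cells, was at 11.4 and 12.3 RPKM in knockout, 2.81 and 2.56 RPKM in heterozygous and 3.90 and 2.33 RPKM in wild-type libraries. Lcp1, the actin bundler L-plastin, was at 2.14 and 2.30 RPKM in knockout, 0.117 and 0.0514 RPKM in heterozygous and 0.162 and 0.155 RPKM in wild-type libraries. Neither overlapped between knockout and the other genotypes, but Laptm5 was present at over 2 RPKM in all 6 libraries. Laptm5 rose by 1.67 ± 0.16 (adjusted p = 6.85e-05) and Lcp1 by 1.47 ± 0.06 (adjusted p = 1.55e-06) against wild-type cells.

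The remaining pan-leukocyte genes were under 1 RPKM everywhere. Coro1a, an actin regulator of leukocytes, was at 0.692 and 0.777 RPKM in knockout, 0.0945 and 0.159 RPKM in heterozygous and 0.208 and 0.175 RPKM in wild-type libraries. Cd52, a small surface glycopeptide, was at 0.483 and 0.422 RPKM in knockout libraries and at 0 in the other 4, which makes it at least 4.38-fold higher than wild type when 3 reads are allowed to the wild-type group. Cd53, a tetraspanin of leukocytes, differed in kind, with 0.262 and 0.396 RPKM in knockout, 0.274 and 0.246 RPKM in heterozygous and 0.354 and 0.332 RPKM in wild-type libraries. Its genotypes overlapped, and its ratio over wild type was 0.954 (0.671 to 1.35) on 86.6 knockout and 55.5 wild-type reads. Ptprc, which encodes the CD45 phosphatase of nucleated blood cells, ranged between 0.0576 and 0.0683 RPKM in knockout libraries and between 0 and 0.0237 RPKM in the other 4, a ratio over wild type of 5.15 (1.85 to 20.1). Cd84, a receptor of the SLAM family, had a ratio of 10.3 (2.66 to 89.3), and Aif1, the calcium-binding protein Iba-1, rested on 2.9 knockout, 2.0 heterozygous and 0 wild-type reads.

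Adhesion genes were low but likewise highest in knockout libraries. Itgb2, the beta chain shared by leukocyte integrins, was at 0.834 and 0.939 RPKM in knockout, 0.0836 and 0.0446 RPKM in heterozygous and 0.087 and 0.0727 RPKM in wild-type libraries. Emr1, the F4/80 antigen of mature macrophages, was at 0.397 and 0.275 RPKM in knockout libraries, 0 in both heterozygous and 0.0411 and 0.011 RPKM in wild-type libraries. The ratio over wild type was 11.1 (4.93 to 26.6) for Itgb2 and 12.7 (5.28 to 40) for Emr1. Itgam, the alpha chain that joins Itgb2, ranged between 0.230 and 0.270 RPKM in knockout libraries and up to 0.0228 RPKM in the other 4, with a ratio of 13.6 (5.64 to 42.6).

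The 3 chains of complement C1q, which in RefSeq lie next to each other in the order C1qa, C1qc and C1qb, were all highest in knockout libraries. C1qa was at 0.807 and 0.763 RPKM in knockout, 0.0277 and 0 RPKM in heterozygous and 0.0934 and 0.0331 RPKM in wild-type libraries. C1qc was at 0.618 and 0.365 RPKM in knockout, 0 and 0.0304 RPKM in heterozygous and 0.0951 and 0.101 RPKM in wild-type libraries, while C1qb ranged between 0.244 and 0.251 RPKM in knockout libraries and up to 0.0337 RPKM in the other 4. For each chain the knockout libraries lay above the other 4 with no overlap. No order is read between heterozygous and wild-type libraries, which rest on few reads. They held 1.0 and 4.0 reads of C1qa, 0 and 2.0 of C1qb and 1.0 and 6.0 of C1qc. The ratio over wild type was 12.3 (4.59 to 45.9) for C1qa, 7.55 (1.90 to 66.5) for C1qb and 5.01 (2.14 to 14.3) for C1qc, with intervals that overlap.

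Lysosomal and lytic genes held the highest levels of the list. Lyz2, the lysozyme of myeloid cells, was at 23.8 and 23.5 RPKM in knockout, 1.33 and 1.13 RPKM in heterozygous and 3.20 and 3.06 RPKM in wild-type libraries. Lyz1, its neighbour and near-identical copy, was at 5.46 and 5.80 RPKM in knockout, 0.352 and 0.375 RPKM in heterozygous and 0.674 and 0.846 RPKM in wild-type libraries. Cd68, a glycoprotein of phagocyte lysosomes, was at 7.47 and 7.61 RPKM in knockout, 1.61 and 1.42 RPKM in heterozygous and 0.818 and 1.04 RPKM in wild-type libraries. The lysozymes were lowest in heterozygous cells, whereas Cd68 was lowest in wild-type cells. Against wild type, Lyz2 rose by 2.58 ± 0.05 (adjusted p = 6.5e-08), Cd68 by 2.15 ± 0.07 (adjusted p = 4.5e-07) and Lyz1 by 1.91 ± 0.06 (adjusted p = 5.54e-07). Reads of Lyz1 and Lyz2 could be split between the rows, and without Lyz1 the count of members called higher was 8.

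Lgmn, the asparaginyl endopeptidase legumain, was the highest member in every library and did not follow the others. It was at 32.1 and 31.7 RPKM in knockout, 30.2 and 31.8 RPKM in heterozygous and 31.3 and 32.8 RPKM in wild-type libraries, and the ratio over wild type was 0.996 (0.955 to 1.04). Ctss, cathepsin S, was far lower, at 0.420 and 0.471 RPKM in knockout libraries, 0 in both heterozygous and 0.0495 and 0.105 RPKM in wild-type libraries. Mpeg1, the pore-forming protein perforin-2, was at 0.383 and 0.321 RPKM in knockout, 0.00693 and 0.0074 RPKM in heterozygous and 0.0697 and 0.0659 RPKM in wild-type libraries. Both were ordered knockout, wild type, heterozygous with no overlap. Their ratios over wild type were 5.82 (2.51 to 16.5) and 5.20 (3.12 to 9.13). Cd74, the invariant chain of class II antigen presentation, stayed between 0.102 and 0.106 RPKM in knockout libraries and up to 0.0756 RPKM in the other 4, and its ratio of 2.83 (0.796 to 15.5) did not exclude 1.

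Pattern and scavenger receptors were divided. Cd14, the co-receptor for bacterial lipopolysaccharide, was at 2.02 and 1.92 RPKM in knockout, 1.82 and 1.53 RPKM in heterozygous and 1.65 and 1.78 RPKM in wild-type libraries. The knockout libraries were the highest 2 by a small margin, and the difference of 0.13 ± 0.07 against wild type was not called (adjusted p = 0.12) and turned negative, at -0.10, with quantile normalization. Msr1, the class A scavenger receptor, was at 0.106 RPKM or more in knockout libraries and at up to 0.0179 RPKM elsewhere, a ratio over wild type of 17.8 (4.69 to 150). Mrc1, the mannose receptor of tissue and alternatively activated macrophages, ranged between 0.0726 and 0.0854 RPKM in knockout libraries and up to 0.0225 RPKM elsewhere. Cd163, the haemoglobin scavenger receptor of resident macrophages, was listed at 0 in all 6 libraries.

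Ncf1, a cytosolic subunit of the phagocyte oxidase, was at 0.314 and 0.236 RPKM in knockout libraries, 0 in both heterozygous and 0.0371 and 0.0263 RPKM in wild-type libraries. Cybb, the membrane subunit encoded on the X chromosome, ranged between 0.061 and 0.109 RPKM in knockout libraries and up to 0.0142 RPKM in the other 4. The ratio over wild type was 8.67 (3.55 to 27.5) for Ncf1 and 11.6 (3 to 99.3) for Cybb. Ms4a7, a membrane protein of macrophages, was at 0.438 and 0.347 RPKM in knockout, 0.0175 and 0 RPKM in heterozygous and 0.0392 and 0.0208 RPKM in wild-type libraries, a ratio of 13 (4.26 to 64.9). The knockout libraries were highest for all 3 genes.

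**Figure D2:**
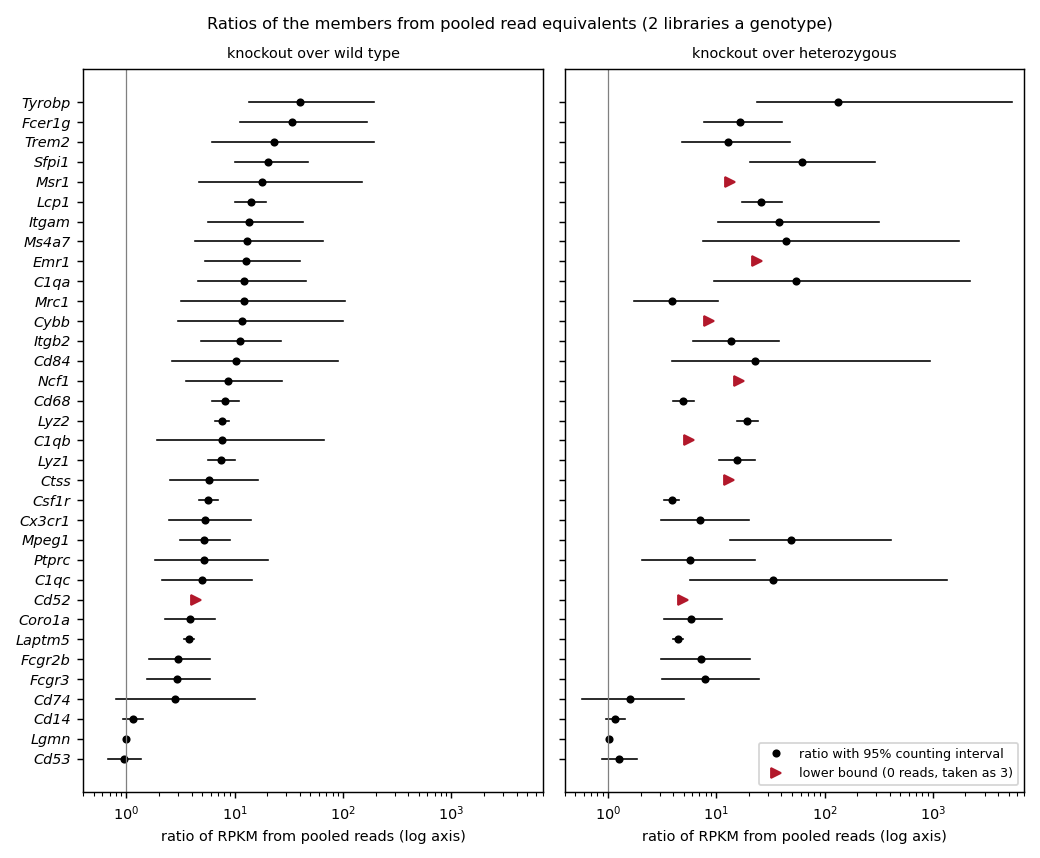
Ratios of RPKM from pooled reads for the 34 members that allow one, knockout over wild type (left) and knockout over heterozygous (right), on a log axis. Points are ratios with exact 95% counting intervals, and triangles are lower bounds where the lower group had 0 reads. Tyrobp lies at 39.8 over wild type, and Cd53, Lgmn and Cd14 lie at the line of equal levels.

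Against heterozygous cells, 9 of the 11 tested members rose in knockout cells and 0 fell, of which 6 again entered only through their knockout values. Of the 5 that entered without them, Laptm5, Cd68 and Lyz2 rose, each by 1 or more on the log2 scale. Over all 10897 genes, 26.4% were called higher, 25.4% lower and 0.486% higher by 1 or more. Lyz2 rose by 3.47 ± 0.05 (adjusted p = 1.16e-07), Lyz1 by 2.28 ± 0.06 (adjusted p = 7.09e-07), Tyrobp by 2.17 ± 0.09 (adjusted p = 3.56e-06) and Cd68 by 1.76 ± 0.07 (adjusted p = 3.48e-06). Cd14 and Lgmn were again not called. With no level filter, 30 of 37 members were called higher and 0 lower, where 17.5% of all symbols were called higher and 13.8% lower. Aif1, Cd14, Cd53, Cd74, Clec7a, Fcgr1 and Lgmn were the members not called.

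**Figure D3:**
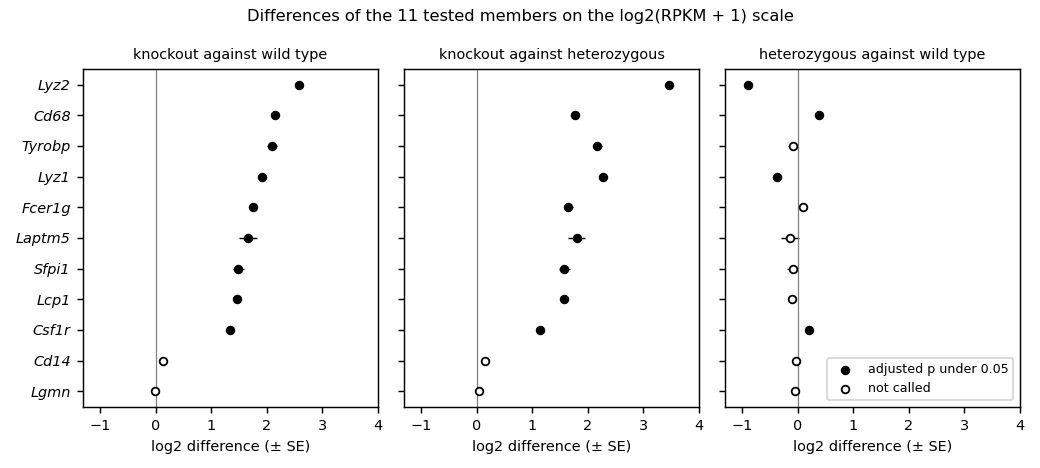
Differences on the log2(RPKM + 1) scale with their SE for the 11 members tested, in the 3 comparisons of the genotypes. Filled points have an adjusted p under 0.05. In both knockout comparisons 9 members lie at 1 or more, while in heterozygous against wild-type cells Cd68 and Csf1r lie above 0 and Lyz1 and Lyz2 below it among the called members.

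Heterozygous cells did not share the knockout levels of most members. Of the 11 members tested, Cd68 and Csf1r rose and Lyz2 and Lyz1 fell against wild type, where 35.5% of all genes tested were called higher and 17.1% lower. With so few calls beside these shares, nothing is read from them about the members as a group. Reads of Lyz1 and Lyz2 could be split between the rows, so their falls may not be separate. The share of calls on the higher side was 67.5%, and it was 51.1% with quantile normalization and 45.5% with median scaling. Lyz2 fell by 0.89 ± 0.05 on the log2 scale (adjusted p = 1.8e-05) and Lyz1 fell by 0.37 ± 0.06 (adjusted p = 0.00275). Cd68 rose by 0.38 ± 0.07 (adjusted p = 0.00303). Csf1r rose by 0.20 ± 0.07 with an adjusted p of 0.047, a call that was lost with either scaling, at 0.01 with quantile normalization (adjusted p = 0.9) and 0.13 with median scaling (adjusted p = 0.194).

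The low members of heterozygous cells were described by their reads. Mpeg1 had 2.0 heterozygous and 16.9 wild-type reads, a ratio of 0.106 (0.0118 to 0.442), and Lcp1 had 23.9 heterozygous and 39.7 wild-type reads, a ratio of 0.537 (0.309 to 0.91). At 0 in both heterozygous libraries were Cd52, Emr1, Clec7a, Cd163, Msr1, C1qb, Ctss, Cybb and Ncf1, 9 members in all. At 0 in both wild-type libraries were Cd52, Aif1, Fcgr1, Clec7a and Cd163. None of 20 housekeeping genes was at 0 in any library. With no level filter Cd68 was called higher and Lyz1 and Lyz2 lower, where 20% of all symbols were called higher and 9.59% lower. Aif1 was also called higher and C1qb lower, but these calls set 1 read in each library of a genotype against 0 reads in each of the other, and no difference is read from them.

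Ratios between members within a library were used to describe which myeloid genes stood together, as values with no test. In knockout libraries Tyrobp over Fcer1g was 1.44 and 1.31, Trem2 over Tyrobp 0.166 and 0.219, and C1qa over Csf1r 0.292 and 0.28. Emr1 over Csf1r was 0.144 and 0.101, Cx3cr1 over Csf1r 0.0618 and 0.065, Msr1 over Csf1r 0.0724 and 0.0389 and Mrc1 over Csf1r 0.0309 and 0.0266. Csf1r itself was 47.9 and 40 times Ptprc. Emr1, Cx3cr1, Msr1 and Mrc1 were thus at most 0.144 times Csf1r in the knockout libraries, and Cd163 was at 0 in all 6 libraries. No macrophage sample was among the 6 libraries, so whether such ratios are low for a macrophage was not tested. Mrc1 over Csf1r was 0.0298 and 0.0274 in heterozygous and 0.0316 and 0 in wild-type libraries. Csf1r, Tyrobp and Fcer1g were under 1 RPKM in heterozygous and wild-type libraries, where the same ratios rest on few reads.

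Ratios with a denominator over 1 RPKM could be set beside each other across genotypes. Lyz1 over Lyz2 was 0.23 and 0.246 in knockout, 0.264 and 0.331 in heterozygous and 0.211 and 0.276 in wild-type libraries, so the genotypes overlapped although Lyz2 itself differed many fold. Lyz2 over Cd68 was 3.19 and 3.09 in knockout, 0.83 and 0.795 in heterozygous and 3.91 and 2.94 in wild-type libraries. Knockout and wild-type cells overlapped in this ratio and heterozygous cells lay apart. In the first wild-type library Cd68 was at 0.818 RPKM, slightly under that limit.

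Some genes of osteoclasts reached the level of the highest myeloid members in knockout cells. Acp5, the tartrate-resistant acid phosphatase, stood at 23.33 and 23.97 RPKM there and was 0.98 and 1.02 times Lyz2 in knockout, 0.436 and 0.666 times in heterozygous and 0.224 and 0.22 times in wild-type libraries, with no overlap between genotypes. Mmp9, a gelatinase of osteoclasts and other myeloid cells, was 0.56 and 0.55 times Lyz2 in knockout, 0.366 and 0.532 times in heterozygous and 0.568 and 0.644 times in wild-type libraries, with knockout values between those of the other genotypes. Atp6v0d2, a proton pump subunit of osteoclasts, was 0.545 and 0.586 times Csf1r in knockout libraries, several times the share of Emr1. Dcstamp, needed for osteoclast fusion, was at 0.626 and 0.798 RPKM in knockout, 0 in both heterozygous and 0 and 0.0359 RPKM in wild-type libraries.

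Not every osteoclast gene was high in knockout cells. Of 15 such genes 11 were tested, and 6 rose and 2 fell in knockout against wild-type cells, or 5 and 4 with quantile normalization, where 40.6% of all genes tested were called higher and 26.6% lower. Against heterozygous cells 4 of the 11 rose and 5 fell. Acp5 and Atp6v0d2 were among the 11 only because of their knockout values, so the counts of rises support nothing by themselves. Ctsk, the cathepsin of bone resorption that fibroblasts also make, fell to 11.4 and 10.6 RPKM in knockout libraries, against 19.3 and 19.2 RPKM in wild-type libraries (-0.75 ± 0.06, adjusted p = 4.22e-05). Calcr, the calcitonin receptor of mature osteoclasts, was at 0.0644 and 0.0391 RPKM in knockout libraries and at 0 in the other 4.

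**Figure D4:**
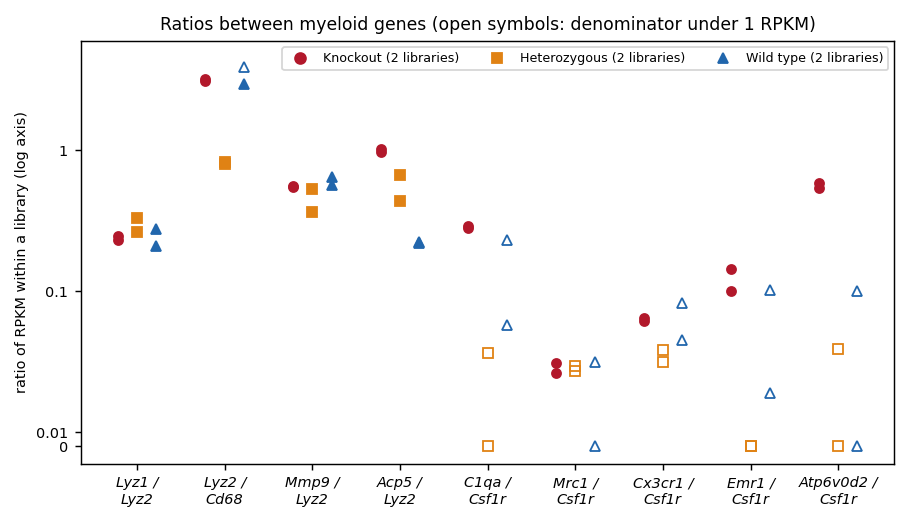
Ratios of RPKM within each library for 9 pairs of myeloid genes, on a log axis, with 1 symbol per library. Open symbols have a denominator under 1 RPKM. Acp5 over Lyz2 and Atp6v0d2 over Csf1r are highest in the knockout libraries, and Lyz1 over Lyz2 overlaps between the genotypes.

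Other lineages were measured beside the members. Summed levels of 11 neutrophil genes were 0.384 and 0.349 RPKM in knockout, 0.313 and 0.226 RPKM in heterozygous and 0.405 and 0.111 RPKM in wild-type libraries, and those of T cell, B cell, endothelial and erythroid genes were also under 1 RPKM in all 6 libraries. Monocyte genes summed to 11.8 and 11.4 RPKM in knockout, 16.3 and 16.4 RPKM in heterozygous and 13.9 and 16.1 RPKM in wild-type libraries, mostly from Ly6c2 and Plac8. The sum was lowest in knockout cells, but Ly6c2 and Plac8 went opposite ways against wild type. Ly6c2 rose (0.53 ± 0.10, limma, adjusted p = 0.00273) and Plac8 fell (-1.39 ± 0.10, adjusted p = 1.51e-05). NK cell genes reached 5.38 RPKM in 1 heterozygous library and mast cell genes 1.66 RPKM in another, and neither sum was highest in knockout cells. S100a9 and Retnlg of neutrophils, Cd3d, Cd3e, Cd3g and Cd2 of T cells and Ms4a1 and Pax5 of B cells were at 0 in all libraries. The class II genes, which go with Cd74, summed to 7.50 and 7.97 RPKM in knockout, 8.40 and 7.24 RPKM in heterozygous and 8.30 and 8.87 RPKM in wild-type libraries, and H2-Aa was at 0. Of 8 markers of alternative activation 6 were at 0 in all libraries, and Il1b of the classical activation list was at 0 as well.

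Transcription factors and oxidase partners that work with members were measured as well. All 6 tested of 10 further myeloid transcription factors rose in knockout against wild-type cells, among them Cebpb (1.13 ± 0.04) and Mitf (0.72 ± 0.06). The adjusted p-values were 6.07e-07 for Cebpb and 3.38e-05 for Mitf, and 40.6% of all genes tested were called higher. Some of the 6, Mitf among them, entered the test only through their knockout values, so this count supports nothing by itself. In heterozygous against wild-type cells 5 of the 6 rose as well, among them Cebpb by 1.21 ± 0.04 (adjusted p = 9.72e-07), and Cebpb was not called in knockout against heterozygous cells (-0.08 ± 0.04, adjusted p = 0.109). Mitf was at 1.13 and 1.14 RPKM in knockout, 0.696 and 0.643 RPKM in heterozygous and 0.265 and 0.335 RPKM in wild-type libraries, so that heterozygous cells lay between the others. For Sfpi1 the ratio of heterozygous over wild type was 0.328 (0.0572 to 1.39), and no order of the 2 is read from it. Rac2, the blood cell GTPase of the phagocyte oxidase, was at 1.45 and 1.82 RPKM in knockout, 0.0198 and 0.0627 RPKM in heterozygous and 0.0222 and 0.0347 RPKM in wild-type libraries. It entered the test only through its knockout values, so its rise of 1.35 ± 0.08 (limma, adjusted p = 6.89e-06) supports nothing by itself. The other oxidase partners tested, Cyba (-0.15 ± 0.04, adjusted p = 0.0128) and Rac1 (-0.14 ± 0.02, adjusted p = 0.000318), fell in knockout against wild-type cells, calls that were lost with quantile normalization. Of 14 lysosomal genes outside the members, 10 fell and 2 rose in knockout against wild-type cells, where 26.6% of all genes tested were called lower and 40.6% higher.

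**Figure D5:**
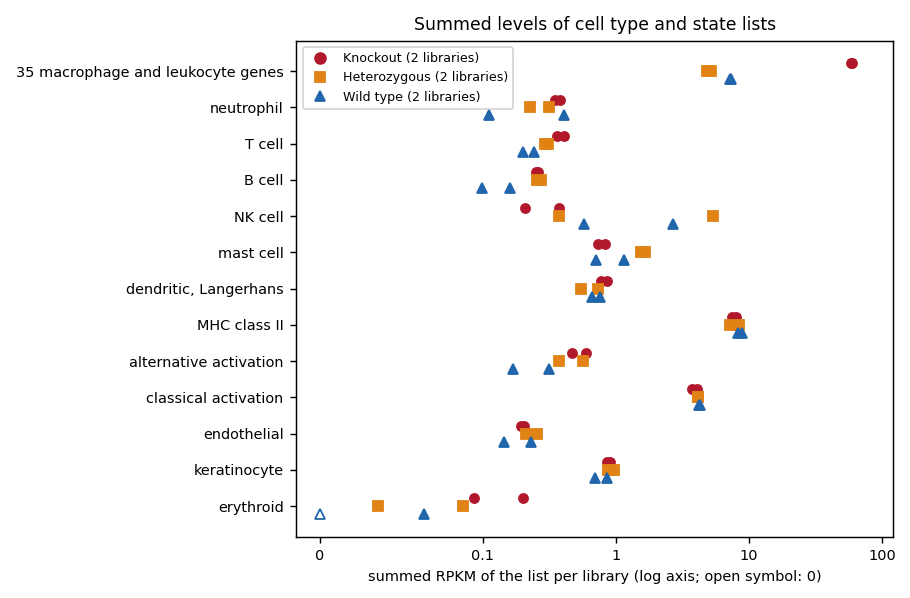
Summed RPKM per library, on a log axis, of 35 members (all but Lgmn, Cd14 and Laptm5) and of gene lists for other cell types and activation states. The 35 members sum to 58.2 and 58.9 RPKM in knockout, 5.15 and 4.79 RPKM in heterozygous and 7.32 and 7.13 RPKM in wild-type libraries, and the sums of neutrophil, T cell and B cell genes stay under 1 RPKM.

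Promoter sequences of the members were searched for GAGGAA, a core recognised by PU.1, or its reverse complement TTCCTC. Windows of 300 bases, with 250 bases before and 50 after the start of transcription, were available from RefSeq (GRCm38.p6) for 28 of the 38 members. The core was found on either strand in 17 of them, or 60.7%, against 31.3% of 27025 symbols with a window. Of the 9 members called higher against wild type, 6 had a window and 2 of these held the core, while Cd53, Aif1, Fcgr1 and Clec7a, which showed no clear difference or too few reads, held it as well. A match describes letters and not a bound site, and nothing about PU.1 is drawn from it. Of the called members with a match, Cd68 and Laptm5 are shown, with the matches in capitals.
Cd68, chr11:69666121-69666420, minus strand: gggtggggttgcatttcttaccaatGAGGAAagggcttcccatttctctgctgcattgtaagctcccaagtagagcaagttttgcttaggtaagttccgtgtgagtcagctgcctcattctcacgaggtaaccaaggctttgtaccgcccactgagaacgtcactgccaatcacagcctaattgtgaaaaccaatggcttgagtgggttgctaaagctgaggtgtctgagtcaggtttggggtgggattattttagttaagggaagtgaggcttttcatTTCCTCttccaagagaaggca
Laptm5, chr4:130913066-130913365, plus strand: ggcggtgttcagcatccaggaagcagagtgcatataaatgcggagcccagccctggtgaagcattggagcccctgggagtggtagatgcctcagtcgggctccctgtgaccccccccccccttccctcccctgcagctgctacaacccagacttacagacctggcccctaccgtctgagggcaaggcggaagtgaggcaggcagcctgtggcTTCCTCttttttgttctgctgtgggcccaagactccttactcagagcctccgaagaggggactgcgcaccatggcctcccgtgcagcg

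The Cd68 window holds the core at position -225 on the same strand and, on the opposite strand, at position 30 after the start. The Laptm5 window holds it at position -38 on the opposite strand. Among the other members tested, the windows of Lyz1, Lyz2, Lcp1, Fcer1g and Lgmn held no match.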

How the data were processed

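Polyadenylated RNA of 6 libraries (2 per Hotair genotype) was analysed, and the 6 ChIP-seq libraries were not used. The libraries were made by a strand-marking dUTP protocol, per the labels' protocols, and TopHat and the mm9 build are named in the submitters' processing notes. No source says if strand was used in counting. The authors deposited 1 value per gene symbol and library with no unit in the header, and these were taken as RPKM from the deposited values themselves. Library totals and gene lengths were recovered from the steps of low values with 37-base reads, for which 399 of 400 genes checked gave a length (tolerance 0.002 bases). The smallest length that fitted was taken, so finding a length does not show that it is the true one. Read equivalents, ratios of pooled reads with exact 95% binomial intervals and bounds against 3 reads over a group (scipy 1.17.1, Python 3.11.15) follow from these.

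Tests were run on log2(RPKM + 1) with limma 3.58.1 in R 4.3.3 (a mean per genotype, 3 residual degrees of freedom, empirical Bayes moderation with an intensity trend; two-sided, Benjamini-Hochberg over all 10897 genes passing the filter), checked on simulated data. Intervals and bounds cover counting error only. There were 16 alternative settings for the counts of calls.

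The members and the 23 other gene lists (174 genes) were chosen with earlier results of these data known. Every member was accounted for: values per library for members tested and for those reaching 0.3 RPKM, ranges for the rest. From the other lists, up to 3 called genes with the largest difference and genes used in ratios were named, leaving out genes not reported here; Dcstamp, Calcr, Csf1 and all genes in the closing section were named after their values were seen. The 20 housekeeping genes were listed after the data were seen, and 3 osteoclast and transcription factor symbols were replaced by the synonyms the table uses. Promoters came from RefSeq (GRCm38.p6), and no mm9 coordinates are given.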

Additional observations from a re-analysis of the deposited data

How the results depend on the processing

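The counts of members called in the knockout comparisons depended on the level filter by construction, since it sets how many members are tested. Against wild type, 31 members were called higher with no filter, 4 with a filter at 5 RPKM and 3 with a filter that left out knockout values, and against heterozygous cells 30, 4 and 3. All other settings stayed within 1.5 times the counts given. In heterozygous against wild-type cells the count of members called higher was 1 with a pseudocount of 5 RPKM, the filter at 5 RPKM, the filter without knockout values, quantile normalization, median scaling, the replicate block and the fit of only the 4 libraries compared, and between 1 and 2 when 1 library was left out. The call lost was that of Csf1r, or Csf1r was not tested. With no filter Csf1r was not called either (adjusted p = 0.0952), and the count stayed at 2 through Aif1, which rests on 2.0 heterozygous and 0 wild-type reads. The count of members called lower was 1 with the filter without knockout values, where Lyz1 was not tested.

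No member called in a knockout comparison lost its call or turned under any setting in which it was tested. For the 6 members let in by their knockout values this supports nothing by itself. Differences that turned were ones not called. In knockout against wild-type cells these were Cd14 (-0.099 with quantile normalization) and Lgmn (0.070 with quantile normalization, and between -0.039 and 0.026 when 1 library was left out). In heterozygous against wild-type cells they were Fcer1g (-0.011 with quantile normalization), Tyrobp (between -0.196 and 0.040 when 1 library was left out), Cd14 (between -0.099 and 0.054) and Laptm5 (between -0.414 and 0.145). The Laptm5 value of -0.414, without the second wild-type library, was called (adjusted p = 0.00511), as was Lgmn at -0.122 with median scaling (adjusted p = 0.0214). Cd14 was called at 0.228 in knockout against heterozygous cells without the first heterozygous library (adjusted p = 0.0358). The causes of these changes were not tested.

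With the replicate block, Csf1r in heterozygous against wild-type cells had an adjusted p of 0.0645. The labels number the replicates but do not pair them. Over 10897 genes the deviations of same-numbered libraries correlated at 0.0648 (knockout and heterozygous), -0.062 (knockout and wild type) and -0.0882 (heterozygous and wild type). These values gave no sign of a pairing, but they cannot exclude one. The block changed no other call of a member. The count of members with both knockout libraries above the other 4 was 34 with median scaling and between 34 and 35 with 1 library left out, alternatives chosen after seeing the data.

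Members under the filter rest on few reads in heterozygous and wild-type libraries, and their intervals are wide, so absence there was not shown.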

Other observations

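Signalling genes that act behind the adaptors Tyrobp and Fcer1g were mostly under 1 RPKM, and 6 of 10 were called higher in knockout against wild-type cells when no level filter was applied, where 28.7% of all symbols were. Lcp2, a scaffold of ITAM signalling, was at 0.381 and 0.285 RPKM in knockout libraries, 0 in both heterozygous and 0.01 and 0 RPKM in wild-type libraries. Vav1, a guanine nucleotide exchange factor of blood cells, was at 0.177 and 0.169 RPKM in knockout, 0.00717 and 0.00765 RPKM in heterozygous and 0 in both wild-type libraries. Ptpn6, the phosphatase SHP-1, was at 0.758 and 0.88 RPKM in knockout, 0.123 and 0.0794 RPKM in heterozygous and 0.0798 and 0.0731 RPKM in wild-type libraries. The knockout libraries were highest for each of these, whereas Lyn, a kinase of the same list that entered the filtered test, fell by 0.45 ± 0.05 on the log2 scale (limma, adjusted p = 0.00021).

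Of 10 lipid-handling genes of phagocytes 8 were tested, and 6 rose and 2 fell in knockout against wild-type cells, where 40.6% of all genes tested were called higher and 26.6% lower. In knockout against heterozygous cells 3 rose and 3 fell, and in heterozygous against wild-type cells 5 rose and 1 fell. Apoe was at 3.33 and 3.81 RPKM in knockout, 1.26 and 1.03 RPKM in heterozygous and 1.03 and 1.10 RPKM in wild-type libraries. Spp1, the matrix protein osteopontin, was at 579 and 576 RPKM in knockout, 317 and 330 RPKM in heterozygous and 264 and 262 RPKM in wild-type libraries.

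Gzmb, a serine protease of cytotoxic cells, varied within genotypes, at 0.374 and 0.182 RPKM in knockout, 0.374 and 5.38 RPKM in heterozygous and 2.65 and 0.548 RPKM in wild-type libraries. Csf3r, the receptor of granulocyte growth factor, was at 0.158 RPKM in the first heterozygous library and at 0 in the second.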
